A study of Mus musculus with 8 samples.

Results

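Smooth muscle and myofibroblast contractile genes were followed in immortalized mouse dental papilla cells that carry floxed Bmp2 alleles (iBmp2 fx/fx, called Fx) or the Bmp2 deletion (iBmp2 ko/ko, called Ko). They are the 10 genes Acta2, Actg2, Tagln, Cnn1, Myh11, Myl9, Tpm1, Tpm2, Myocd and Srf, chosen by symbol from the 22609 gene symbols of the count table. Total RNA was sequenced from 8 libraries, 1 for each genotype at 6, 24, 48 and 72 h of culture, and both genotypes were grown alike, so they differ by label only in Bmp2. Each genotype is represented by 1 immortalized line, so genotype and line cannot be told apart. The series design text gives 8 h where the sample labels give 6 h, and the labels are used here. The study's methods list only 6, 48 and 72 h, so these 6 libraries carry the tests, and the libraries of 24 h are shown apart.

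Contractile cells pull by sliding actin thin filaments along myosin thick filaments. Tropomyosins lie along the actin filament, calponin and transgelin bind to it, and phosphorylation of the myosin regulatory light chain switches the motor on. In smooth muscle, and in fibroblasts that have become myofibroblasts, many of these proteins come from genes with CArG boxes, the DNA element bound by the serum response factor SRF. Myocardin lends SRF its muscle activity in smooth and cardiac muscle, while the related MRTF cofactors, which are held back by free actin monomers, do so in many other cells. In teeth, alpha smooth muscle actin is known from vessel walls and from mesenchymal progenitors of the dental pulp.

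The start regions of the genes were searched for CArG boxes, because such boxes are what the named regulator of the group binds. RefSeq promoter windows of 300 bases, 250 before and 50 after the start (table of assembly GRCm38.p6), were at hand for 6 of the 10 genes, namely Acta2, Cnn1, Myl9, Srf, Tpm1 and Tpm2, and each window matched mm9 exactly once. A CArG box was read as CC, 6 bases that are each A or T, and GG, a form that reads alike on both strands. Such a box stood in 2 of the 6 windows, those of Myl9 and Srf, and in 1.63% of all 32851 windows. With 1 mismatch allowed in the 6 central bases, Acta2 joined them, making 3 of 6, against 9.98% of all windows. The windows of Cnn1, Tpm1 and Tpm2 held neither form, which says only that these letters are not in those bases. The upstream sequences of the 3 genes with boxes are shown on the strand of the gene, from 5′ to 3′, with the boxes in capitals. They lie at chr19:34329864-34330113 (minus strand) for Acta2, at chr2:156600950-156601155 (plus strand) for Myl9 and at chr17:46693112-46693361 (minus strand) for Srf, all on mm9.
Acta2: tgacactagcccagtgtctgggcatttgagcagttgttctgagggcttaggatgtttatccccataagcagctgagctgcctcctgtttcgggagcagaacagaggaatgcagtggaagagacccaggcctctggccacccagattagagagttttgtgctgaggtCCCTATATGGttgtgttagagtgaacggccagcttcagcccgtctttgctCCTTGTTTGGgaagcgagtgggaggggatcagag
Myl9: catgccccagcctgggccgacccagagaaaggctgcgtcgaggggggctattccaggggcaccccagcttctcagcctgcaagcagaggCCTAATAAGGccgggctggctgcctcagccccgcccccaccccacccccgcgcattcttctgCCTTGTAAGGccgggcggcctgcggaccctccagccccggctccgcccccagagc
Srf: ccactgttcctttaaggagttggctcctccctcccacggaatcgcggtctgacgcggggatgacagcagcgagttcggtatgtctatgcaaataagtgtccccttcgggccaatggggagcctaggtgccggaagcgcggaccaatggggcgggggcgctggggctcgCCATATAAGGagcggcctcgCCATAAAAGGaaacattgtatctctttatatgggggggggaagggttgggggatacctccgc
In the Acta2 window, CCCTATATGG lay 84 to 75 bases and CCTTGTTTGG 34 to 25 bases before the RefSeq start, each with 1 central mismatch. Myl9 held the exact box CCTAATAAGG at 161 to 152 bases and CCTTGTAAGG, with 1 mismatch, at 99 to 90 bases before its RefSeq start, which lies downstream of the GENCODE gene start at which the printed sequence ends. In the Srf window both boxes were exact, CCATATAAGG at 82 to 73 bases and CCATAAAAGG at 62 to 53 bases before the RefSeq start.

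The reads counted on genes numbered 25890110 to 32415665 in a library (median 29985177), and 3 counts, taken as the detection floor, equal 0.0925 to 0.116 CPM (read counts scaled to the library total; counting error only). Bmp2 had 1 read in the Fx library of 24 h and 0 in the other 7 libraries, so the genotype labels could not be checked by it. The library labelled Ko of 24 h goes against its label. Over 13121 tested genes its median absolute log2 difference from the Fx library of 6 h was 0.073, while the closest pair among all other libraries differed by 0.175. From the Ko libraries of 6, 48 and 72 h it differed by 0.369, 0.282 and 0.480. The 8 contractile genes tested showed the same, with a median difference of 0.06 and a largest one of 0.153 from the Fx library of 6 h, against 0.597 and 3.13 from the Ko library of 6 h. No pair of libraries held identical counts. A read was set aside in counting where it aligned at several genomic positions, and such alignments took 41.34 to 49.59% of each library, with the highest shares in the Fx library of 72 h (45.56%) and the Ko libraries of 6 h (48.38%) and 72 h (49.59%). Those 3 libraries also hold the highest Acta2, Myl9 and Actg2 levels given next, and the part of the alignment share in these levels was not tested.

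**Figure D1:**
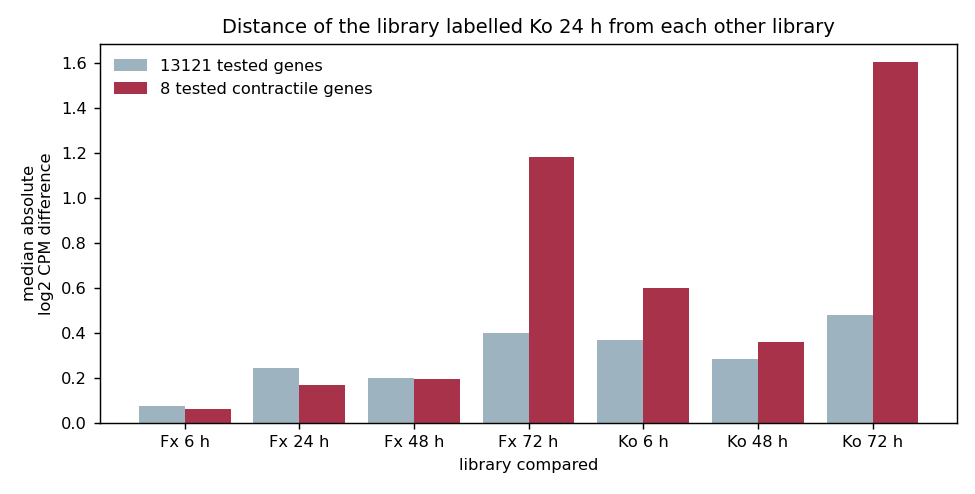
Median absolute difference in log2 CPM between the library labelled Ko of 24 h and each of the other 7 libraries, over 13121 tested genes (grey bars) and over the 8 tested contractile genes (red bars). The lowest pair of bars is that of the Fx library of 6 h, at 0.073 and 0.06.

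Levels of different genes were compared per length, as RPKM (reads per kilobase of union exon length, scaled like CPM), averaged over the 6 libraries. Acta2, the alpha smooth muscle actin that marks myofibroblasts, was the most abundant at 449 ± 254 RPKM (SD, n = 6). Tagln, Tpm2, Myl9 and Tpm1 followed at 182, 156, 154 and 137 RPKM, with SDs of 136, 48.1, 111 and 48.8, so these neighbours did not differ beyond their spread. With the length of the longest transcript in place of the union of exons, Tpm1 moved to 308 and Tpm2 to 208 RPKM and both passed Tagln, so the order within this group rests on the length used. Cnn1 stood lower at 57.8 RPKM, Srf at 23.7 and Actg2 at 5.35. Myh11 at 0.0241 RPKM and Myocd at 0.0016 RPKM closed the order, below any level that could be tested. Of the 10 genes, 8 passed the filter on low counts.

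Srf encodes the transcription factor itself (mm9 chromosome 17, 46683788 to 46693111, minus strand, 7 exons). Its level, in CPM scaled by the TMM method, was 70.4, 67.8, 88.6 and 137 at 6, 24, 48 and 72 h in the Fx libraries, and 57.4, 76.1 and 152 at 6, 48 and 72 h in the Ko libraries. The library labelled Ko of 24 h held 63.3 CPM. Srf was lowest before 48 h and highest at 72 h in both genotypes, whose ranges overlapped. Myocd, the gene of myocardin (chromosome 11, 64990063 to 65083491, minus strand), had 1 read in each of 3 libraries, Fx of 6 h, Ko of 48 h and the one labelled Ko of 24 h, and 0 in the other 5. Every library was under the floor of 3 counts, so Myocd could not be detected at this depth in the cells of either genotype.

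Acta2 (chromosome 19, 34315580 to 34329826, minus strand, 9 exons) was at 430.4, 408, 414 and 899 CPM at 6, 24, 48 and 72 h in the Fx cells. The Ko libraries of 6, 48 and 72 h held 978, 497 and 1577 CPM, and the one labelled Ko of 24 h held 411 CPM. At each of the 3 tested times the Ko library was the higher one, yet the ranges overlapped because the Fx library of 72 h exceeded the Ko library of 48 h. Actg2, the gamma actin of visceral smooth muscle (chromosome 6, 83462899 to 83486259, minus strand), ran far below Acta2. Its levels were 0.937, 2.15, 1.05 and 8.04 CPM in the Fx cells, from 30, 60, 34 and 243 reads. In the Ko libraries of 6, 48 and 72 h it reached 8.69, 5.76 and 25.6 CPM, from 265, 177 and 629 reads, and 25 reads (0.933 CPM) were counted in the one labelled Ko of 24 h. Every Ko library of the tested times exceeded the Fx libraries of 6, 24 and 48 h, and the Fx library of 72 h fell among them. Of the 50-base windows of the Acta2 transcript, 0.4% also occur in Actg1, and none of those of Actg2 occur in another gene, so the counts of the pair are separable.

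Tpm1 and Tpm2 encode tropomyosins, which set the access of myosin to actin. Tpm1 (chromosome 9, 66870397 to 66897213, minus strand) was at 722, 692, 642 and 1101 CPM in the Fx cells, and at 782, 653 and 1435 CPM in the Ko libraries of 6, 48 and 72 h, with 749 CPM in the one labelled 24 h. Tpm2 (chromosome 4, 43527583 to 43536637, minus strand) was at 365, 323, 421 and 617 CPM in the Fx cells, and at 432, 265 and 615 CPM in the Ko libraries, with 359.8 CPM in the one labelled 24 h. Both had their highest level at 72 h, and at that time the Tpm2 levels of the genotypes differed by less than counting error, with a ratio of 0.996 (95% counting interval 0.975 to 1.02).

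Myl9 encodes the regulatory light chain of smooth muscle myosin (chromosome 2, 156601156 to 156607394, plus strand, 4 exons). Its levels were 65.95, 72.4, 70.3 and 186 CPM in the Fx cells and 195, 140 and 418 CPM in the Ko libraries of 6, 48 and 72 h. The library labelled Ko of 24 h held 63.9 CPM, below all Fx libraries. The other Ko libraries all exceeded the early Fx libraries, and only the Fx library of 72 h reached into their range. Myh11, the heavy chain that pairs with this light chain in differentiated smooth muscle (chromosome 16, 14194620 to 14291501, minus strand, 42 exons), had 6, 3, 8 and 4 reads in the Fx cells. It had 6, 1 and 4 reads in the Ko libraries of 6, 48 and 72 h and 11 in the one labelled 24 h, which is 0.0325 to 0.410 CPM over the 8 libraries. These counts lay near the floor and were not tested.

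Tagln, whose product transgelin binds and stabilizes actin bundles (chromosome 9, 45737711 to 45744141, minus strand, 5 exons), was at 118, 175, 169 and 451 CPM in the Fx cells. The Ko libraries of 6, 48 and 72 h held 215, 129 and 650.3 CPM, and the one labelled 24 h held 112 CPM. The genotypes overlapped, since the Ko level was above that of the Fx cells at 6 and 72 h and below it at 48 h. Of the Tagln exons, 65 bases overlap Pcsk7 on the other strand, and the strand setting of the counting is not given in the sources used here. Cnn1, the basic calponin that damps actomyosin (chromosome 9, 21903725 to 21914074, plus strand, 7 exons), was at 113, 86.6, 107 and 249.9 CPM in the Fx cells and at 105, 51.0 and 196 CPM in the Ko libraries, with 107 CPM in the one labelled 24 h. Cnn1 was the 1 gene of the group that was lower in the Ko cells at all 3 tested times, while its ranges overlapped too.

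**Figure D2:**
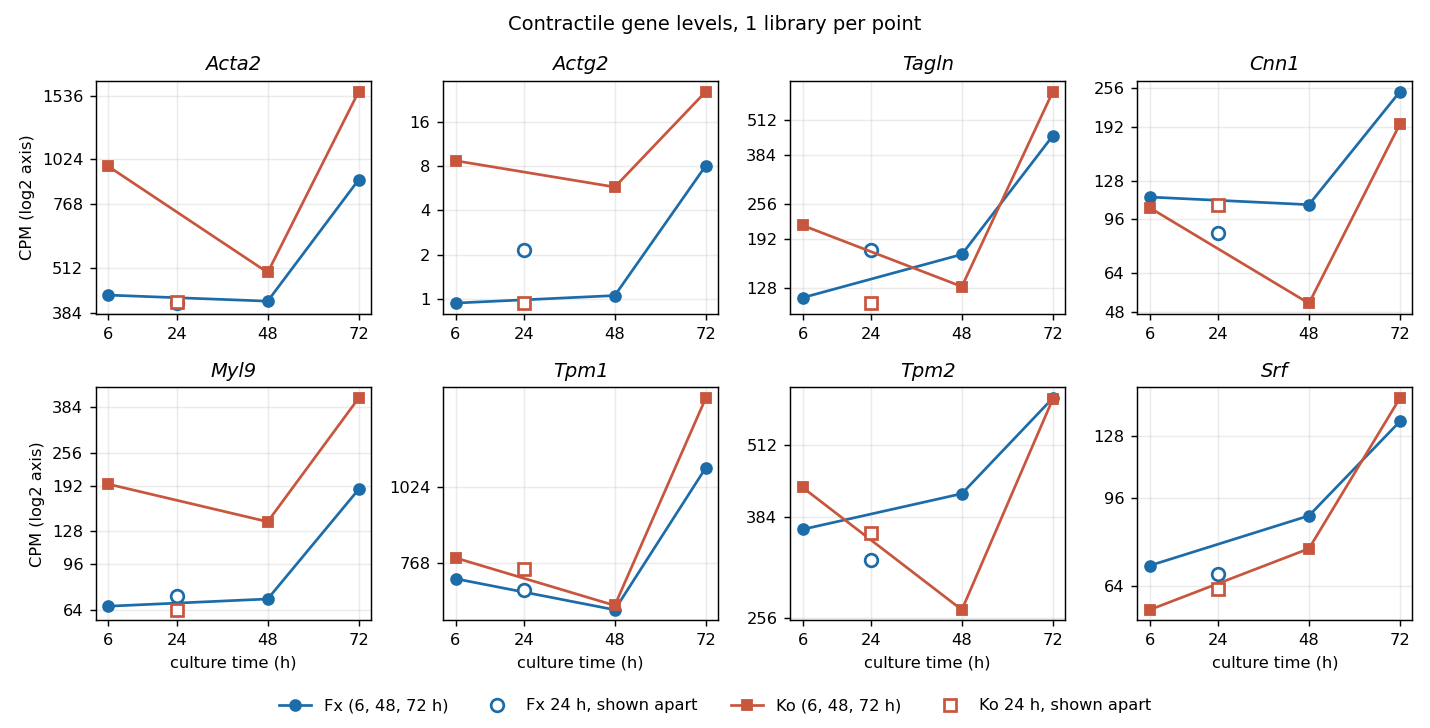
Level of the 8 tested contractile genes in CPM (log2 axis) against culture time in hours, 1 library per point. Filled circles joined by lines are the Fx libraries and filled squares the Ko libraries of 6, 48 and 72 h, and open symbols are the libraries of 24 h. Every panel peaks at 72 h in both genotypes, and the open Ko square lies near the Fx circle of 6 h, with Acta2 at 411 against 430.4 CPM.

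The first comparison asked whether the loss of Bmp2 shifted these genes. Over the 6 libraries, Acta2 averaged 581 ± 275 CPM in the Fx cells and 1018 ± 541 CPM in the Ko cells (SD, n = 3 each). Actg2 averaged 3.34 ± 4.07 and 13.4 ± 10.7 CPM, and Myl9 107 ± 68.0 and 251 ± 147 CPM, which put the ratios of the means at 1.75, 3.995 and 2.33. Without a block, none of the 8 tested genes passed edgeR's quasi-likelihood test. At an absolute log2 fold change of at least 1 and an adjusted p of at most 0.05, 0 of 8 were called, where 2.19% of the 13121 genes were, and at an unadjusted p under 0.05 and a log2 fold change beyond 1, 0 of 8, where 7.35% were. DESeq2 and limma (log2 CPM) also called 0 of 8 at the adjusted limit, where they called 5.02% and 2.2% of all genes, and each of them 2 of 8 at the unadjusted one, where they called 7.84% and 7.12%. The largest estimates were those of Actg2, at a log2 fold change of 1.99 ± 0.95 (SE; adjusted p = 0.42 by edgeR), Myl9 with 1.21 ± 0.53 (0.375) and Acta2 with 0.80 ± 0.48 (0.522). Tagln at 0.42 ± 0.69, Tpm1 at 0.21 ± 0.35, Srf at −0.06 ± 0.39, Tpm2 at −0.10 ± 0.34 and Cnn1 at −0.43 ± 0.52 were all within 1 SE of zero. The median estimate over the 8 genes was 0.32, against 0.03 over all genes tested. With 1 library per genotype and time, these p-values measure a spread that includes the change with culture time. In bulk RNA, more cells expressing a gene and more transcript per cell cannot be told apart.

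Pairs of libraries that share a culture time departed alike from their genotype means, with correlations across genes of 0.713, 0.536 and 0.840 at 6, 48 and 72 h, so the pairing by culture time was used as a replicate block. With this block 3 of the 8 genes passed an adjusted p of 0.05 at any fold, all of them higher in the Ko cells, where 22.7% of all genes passed and 11.3% did so as higher. They were Myl9, at a log2 fold change of 1.24 ± 0.13 (SE; adjusted p = 0.0011 by edgeR), Actg2 with 2.35 ± 0.30 (0.00216) and Acta2 with 0.76 ± 0.18 (0.0213). Myl9 and Actg2 also passed the fold limit, 2 of 8 where 8.45% of all genes did and 3.78% as higher, and the unadjusted limit called the same number, where 9.46% of all genes passed. Leaving out the pair of 6, of 48 or of 72 h in turn kept the call for Myl9 (adjusted p by edgeR 0.00128 to 0.00659) and for Actg2 (0.00267 to 0.00479). For Acta2 the call held without the pair of 48 h and was lost without either other pair, and the adjusted p by edgeR ran from 0.00425 to 0.11. Cnn1 at −0.50 ± 0.18 missed the limit (adjusted p = 0.0763 by edgeR) and passed it without the pair of 6 h (0.0355). Tagln at 0.34 ± 0.22 missed it as well and passed it without the pair of 48 h (0.0139), while Tpm1, Tpm2 and Srf had adjusted p-values of 0.314 to 0.588 by edgeR with the block.

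Set beside each other at single times, the libraries of the genotypes differed most in Actg2. Its Ko to Fx ratio was 9.28 at 6 h (95% counting interval 6.35 to 14.0), 5.47 at 48 h (3.77 to 8.14) and 3.19 at 72 h (2.74 to 3.71). Myl9 was 2.95-fold, 1.98-fold and 2.25-fold higher at these times, and Acta2 2.27-fold, 1.20-fold and 1.75-fold. Tpm1 had ratios of 1.08, 1.02 and 1.304, of which that at 48 h lay within counting error (95% counting interval 0.997 to 1.04). These 4 genes were higher in the Ko library at all 3 times, as were 30.5% of all genes, and Cnn1, with ratios of 0.923, 0.477 and 0.784, was lower at all 3, as were 27.6%. The range of the Ko libraries overlapped that of the Fx libraries for all 8 genes, whereas 20.1% of all genes had separate ranges. Counting intervals compare 2 libraries, not the genotypes, since each rests on 1 library.

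**Figure D3:**
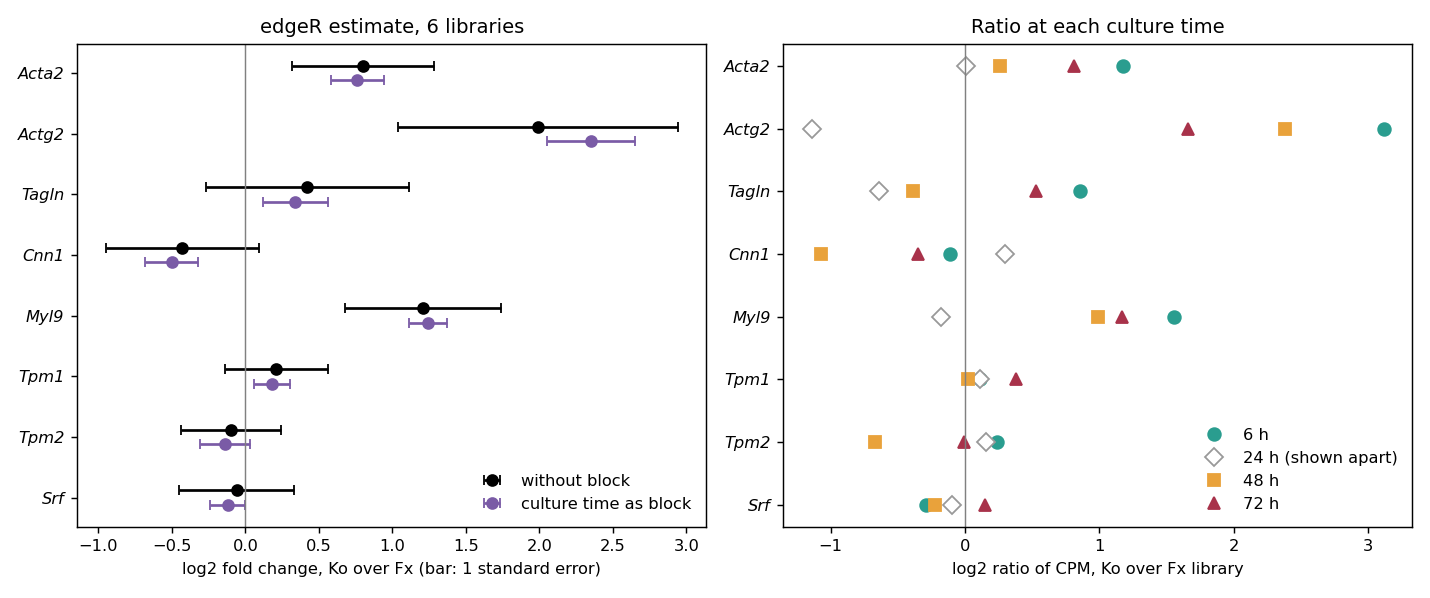
Left, log2 fold change of the 8 tested contractile genes, Ko over Fx, by edgeR over 6 libraries without a block (black) and with culture time as a block (violet), with bars of 1 standard error. Right, the log2 ratio of the Ko to the Fx library at each culture time, with 24 h as open diamonds. Actg2, Myl9 and Acta2 lie right of zero at 6, 48 and 72 h, and at 24 h Actg2 lies at −1.14.

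At 24 h the pattern was absent, but the library labelled Ko lay nearest to the Fx library of 6 h, as given above. This pair is therefore not read as a comparison of the genotypes. Acta2 did not differ beyond counting error, with a ratio of 1.01 (95% counting interval 0.980 to 1.03), Myl9 was lower in the library labelled Ko at 0.883, and Actg2 was lower at 0.435 (0.261 to 0.704). Tagln stood at 0.643 and Cnn1 at 1.23, again on the other side of 1 from their mean over the tested times. When the libraries of 24 h were included, edgeR called 0 of 8 genes at the adjusted limit, as it did 0% of all genes, and 0 of 8 at the unadjusted limit, where 3.55% of all genes passed. With the block over 8 libraries, 0 of 8 passed the adjusted limit, where 0.283% of all genes did, and 1 of 8 the unadjusted one, where 5.08% did. Acta2, Actg2 and Myl9 had log2 fold changes of 0.58, 1.66 and 0.90, with adjusted p-values of 0.161, 0.195 and 0.127 by edgeR.

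The libraries also differed by transcript length. At 6 h the median log2 ratio of Ko to Fx was 0.18 in the shortest of 3 equal classes of genes by longest transcript, which holds Acta2, Actg2, Tagln, Myl9 and Tpm2, and −0.23 in the longest class, which holds Srf. At 24 h they were 0.08 and −0.10, at 48 h both were 0.01, and at 72 h they were 0.12 and −0.09. The log2 ratios of Acta2, Actg2 and Myl9 were 1.18, 3.12 and 1.56 at 6 h, 0.26, 2.38 and 0.99 at 48 h, and 0.81, 1.66 and 1.17 at 72 h. At 24 h they were 0.01, −1.14 and −0.18. The part of transcript length in these ratios was not tested.

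Culture time was the second axis of the design. A straight line on the log2 of hours, with genotype as a term, gave positive slopes for all 8 genes, from 0.10 to 0.48 per doubling of time. Yet edgeR's test of the slope called 0 of 8 genes at an adjusted p of 0.05, as it did 0% of all genes, and only Srf, with a slope of 0.26 ± 0.08 (SE), had an unadjusted p under 0.05 (adjusted p = 0.2 by edgeR), where 21.1% of all genes did. The slopes of the genotypes were compared by an interaction term, which edgeR called for 0 of 8 genes and 0% of all genes, and at an unadjusted p under 0.05 for 0 of 8 and 0.48%.

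The rise was steepest between 48 and 72 h in both genotypes. Each of the 8 genes was highest at 72 h in both genotypes, as were 25.8% of all genes. A contrast of 72 h with 6 and 48 h over the 6 libraries, with genotype as a term, was therefore added after the values had been seen. It called all 8 tested genes as higher at 72 h at an adjusted p of 0.05, where 25.9% of all genes were called and 11.3% as higher. Because the contrast was chosen for this pattern, its values describe the size of the rise. The largest rise was that of Actg2, with a log2 difference of 2.38 ± 0.32 (SE; adjusted p = 0.00559 by edgeR), followed by Tagln with 1.76 ± 0.23 (0.00522), Myl9 with 1.36 ± 0.16 (0.00428), Cnn1 with 1.23 ± 0.26 (0.0182) and Acta2 with 1.07 ± 0.25 (0.0253). Srf rose by 0.97 ± 0.17 (0.0105), Tpm1 by 0.82 ± 0.15 (0.0122) and Tpm2 by 0.71 ± 0.21 (0.0461). The median over the 8 genes was 1.15, against −0.03 over all genes. Only 1 library per genotype stands for 72 h. The calls rest on both of these libraries, since leaving out either one leaves a lone library for that time. In these fits the log2 differences stayed positive, from 0.64 for Tpm2 to 3.0 for Actg2. Acta2 and Tpm2 missed the limit without the Fx library of 6 h (adjusted p by edgeR 0.0595 and 0.105) and without that of 48 h (0.0519 and 0.0695).

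Within each genotype the step from 48 to 72 h was seen in every gene tested. In the Fx cells it was 7.63-fold for Actg2, 2.68-fold for Tagln, 2.64-fold for Myl9, 2.34-fold for Cnn1 and 2.17-fold for Acta2. The Ko cells stepped up 4.45-fold for Actg2, 5.04-fold for Tagln, 2.99-fold for Myl9, 3.84-fold for Cnn1 and 3.17-fold for Acta2. The Ko level at 48 h was 0.508 of that at 6 h for Acta2, 0.488 for Cnn1, 0.602 for Tagln, 0.613 for Tpm2, 0.663 for Actg2 and 0.717 for Myl9, whereas the Fx ratios for the same genes lay between 0.944 and 1.43. Tpm1 had 0.835 in the Ko and 0.889 in the Fx cells, and Srf 1.325 and 1.258, so that at 48 h Tpm1 was lower and Srf higher than at 6 h in both genotypes. The comparison rests on 2 libraries per genotype and was not tested.

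**Figure D4:**
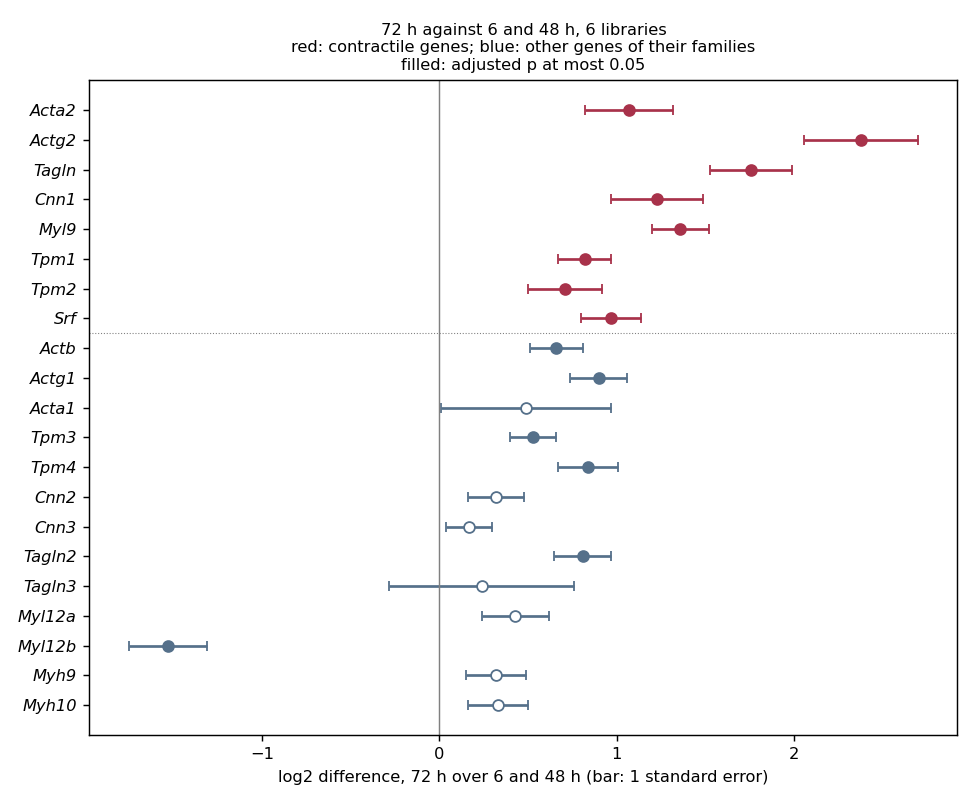
Log2 difference between 72 h and the times 6 and 48 h over 6 libraries, by edgeR with genotype as a term, for the 8 tested contractile genes (red) and 13 other genes of their families (blue), with bars of 1 standard error. Filled points have an adjusted p of at most 0.05. All red points are filled and lie between 0.71 and 2.38, and Myl12b is the one blue point left of zero that is filled, at −1.53.

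The contractile genes were set beside the cytoskeletal genes of their families, given as shares of the summed RPKM of each family. Acta2 made up 24.5 to 33.9% of the actin transcripts in the 4 Fx libraries, and 49.4, 35.9 and 48.2% in the Ko libraries of 6, 48 and 72 h, with 26.9% in the one labelled 24 h. The remainder was almost entirely Actb, the cytoplasmic beta actin, at 64.3 to 74.0% in the Fx cells and 49.0, 62.7 and 49.7% in these Ko libraries. Per union exon length, then, the Ko libraries of 6 and 72 h held about as much Acta2 as Actb. In CPM Actb was higher, at 1461 against 978 at 6 h and 2446 against 1577 at 72 h. Actg1 came to 0.519 to 1.02%. Reads aligned at several positions are left out of all these counts, so the shares are of uniquely placed reads. Shares of all families rest on the union exon length and were not computed with the longest transcript.

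Myl9 showed the same order among the regulatory light chains. It made up 18.3, 22.8, 21.9 and 38.9% of the summed RPKM of Myl9, Myl12a and Myl12b in the Fx cells at 6, 24, 48 and 72 h. In the Ko libraries of 6, 48 and 72 h its share was 38.2, 38.4 and 56.1%, with 18.1% in the one labelled 24 h. Myl12b, a light chain of non-muscle myosin, fell at 72 h in both genotypes, from 111 to 34.0 CPM between 6 and 72 h in the Fx cells and from 102 to 31.2 CPM in the Ko cells (log2 difference −1.53 ± 0.22 against 6 and 48 h, adjusted p = 0.00637 by edgeR).

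Calponins ran the other way. Cnn1 was 18.9, 16.8 and 29.1% of the calponin transcripts in the Fx libraries of 6, 48 and 72 h and 13.3, 7.89 and 20.7% in the Ko libraries, while the share of Cnn2, a calponin of non-muscle cells, was 28.4, 32.8 and 30.9% and 51.5, 53.4 and 45.6%. Cnn2 itself stood at 223 ± 49.9 CPM in the Fx and 410 ± 46.3 CPM in the Ko cells (SD, n = 3 each), with a log2 fold change of 0.88 ± 0.22, and adjusted p-values by edgeR of 0.119 without and 0.00499 with the block. Tagln made up 41.7, 43.0 and 57.6% of the transgelin transcripts in the Fx libraries and 40.9, 33.1 and 55.1% in the Ko libraries, most of the rest being Tagln2. Tropomyosin shares hardly moved between libraries, with Tpm1 at 16.0 to 22.0% and Tpm2 at 19.6 to 25.1% over the 8 libraries. Tpm4 took 51.1 to 57.9%. The size of these shares rests on the length used, since Tpm1 has 6485 bases of union exons and 2890 in its longest transcript. Of the myosin heavy chains, the non-muscle Myh9 took 86.0 to 88.1% and Myh10 11.9 to 14.0%, and Myh11 at most 0.0342%.

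**Figure D5:**
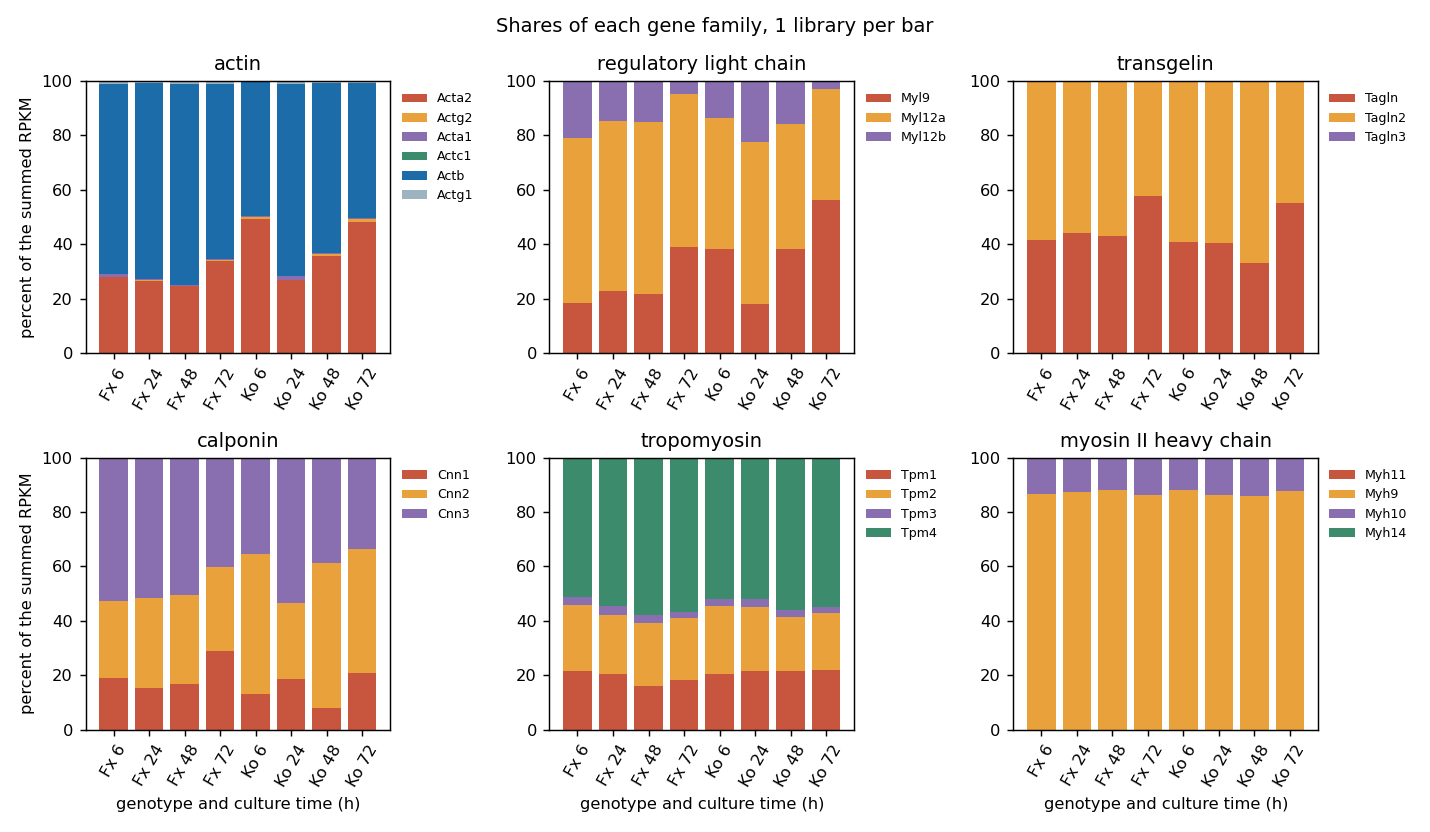
Share of each gene in the summed RPKM of its family, in percent, with 1 bar for each of the 8 libraries (genotype and time in hours). The Acta2 part of the actin bar is 49.4, 35.9 and 48.2% in the Ko libraries of 6, 48 and 72 h and 24.5 to 33.9% in the Fx libraries, and Myh11 is too small to be seen.

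Of the 13 non-muscle and striated relatives tested, 0 passed the unadjusted genotype limit without a block, where 7.35% of all genes did. At the adjusted limit 0 passed without a block, where 2.19% did, and 0 with it, where 8.45% did. So few genes cannot set these counts of 0 apart from those shares. At any fold with the block 2 were higher, Cnn2 and Tagln2, and 0 lower, where 22.7% of all genes passed and 11.3% as higher. At 72 h 5 of the 13 rose and 1 fell, Myl12b, where 25.9% of all genes were called and 11.3% as higher. Those that rose were Actb with a log2 difference of 0.66, Actg1 with 0.90, Tpm3 with 0.53, Tpm4 with 0.84 and Tagln2 with 0.81. Acta1, the skeletal actin, was at 3.45 to 14.7 CPM and the cardiac Actc1 at 0 or 1 read.

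A wider list of 29 smooth muscle contractile and cytoskeletal genes had 27 tested. Without a block, 2 passed the unadjusted genotype limit as higher in the Ko cells, the actin nucleator Lmod1 at a log2 fold change of 1.20 ± 0.28 (adjusted p = 0.0939 by edgeR) and the LIM protein Fhl2 with 1.04 ± 0.32 (0.199). As lower, 2 passed it, the intermediate filament gene Des with −1.35 ± 0.35 (0.134) and the Z-disc gene Ldb3 with −1.36 ± 0.30 (0.082), and 0 passed the adjusted limit in either direction, where 7.35% and 2.19% of all genes passed these limits. With the block 3 were higher and 2 lower at the adjusted limit, 5 of 27 where 8.45% of all genes were called and 3.78% as higher, and at any fold 5 were higher and 5 lower, where 22.7% of all genes passed and 11.3% as higher. The median over the list was −0.04, near the 0.03 of all genes. At 72 h 4 of 27 rose and 0 fell, where 25.9% of all genes were called and 11.3% as higher. The median log2 difference of the list was 0.18. SRF cofactors and upstream regulators, 19 tested, had 0 genes past either limit for genotype and 0 with the block, with a median of −0.04, and their most abundant members per length (RPKM) were the GTPase gene Rhoa, at 163 to 211 CPM, and the cofilin gene Cfl1, at 422 to 1105 CPM. At any fold with the block 4 of the 19 passed, where 22.7% of all genes did. As lower in the Ko cells these were Mkl1, which encodes MRTF-A, at a log2 fold change of −0.88 (adjusted p = 0.0107 by edgeR), Mkl2, which encodes MRTF-B, with −0.59 (0.0111) and Klf4 with −0.58 (0.0178), and as higher Cfl1 with 0.51 (0.0407).

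Myofibroblast matrix and adhesion genes, 21 tested, split in direction. At the unadjusted limit, which 7.35% of all genes passed, 3 were higher in the Ko cells, among them the cadherin gene Cdh11 at a log2 fold change of 2.11 ± 0.44 (adjusted p = 0.0648 by edgeR) and the collagen gene Col3a1 with 1.51 ± 0.30 (0.0534), the remaining one being Postn. As lower, 2 passed it, Cthrc1 with −3.30 ± 0.62 (0.0463), from 1.46 ± 0.580 to 0.150 ± 0.119 CPM (SD, n = 3 each), and the latent TGF-beta binding protein gene Ltbp2 with −1.91 ± 0.56 (0.186). Without a block 1 gene, Cthrc1, passed the adjusted limit, as 2.19% of all genes did, at a level close to the floor. With the block 3 were higher and 4 lower at the adjusted limit, 7 of 21 where 8.45% of all genes were called, among them Cdh11 (adjusted p = 0.000233 by edgeR), Postn (0.00267) and Col3a1 (0.00423) as higher and Ltbp2 (0.00117) and Cthrc1 (0.00183) as lower. At any fold with the block 6 were higher and 7 lower, where 22.7% of all genes passed and 11.3% as higher. The median over the list was −0.14.

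The cells were checked against markers of the types that could carry such genes. The dental mesenchyme markers Prrx1 (264 to 443 CPM) and Twist1 (70.2 to 100.2 CPM) were present in all 8 libraries, while Lhx8 had at most 3 counts. Of the 7 such markers tested, 0 passed either genotype limit, where 7.35% of all genes passed the unadjusted and 2.19% the adjusted one. At any fold with the block, where 22.7% of all genes passed, 2 were lower in the Ko cells. They were Msx1 at a log2 fold change of −0.80 (adjusted p = 0.0222 by edgeR) and Runx2 with −0.58 (0.0154). Of 9 smooth muscle markers, 6 of which belong to the 10 genes, 7 were tested, 1 was higher (Lmod1) and 1 lower (Des) at the unadjusted limit, which 7.35% of all genes passed, and the 2 defining ones, Myh11 and Myocd, lay at or near the floor. Pericyte markers summed to 335.5 to 493.5 CPM in the Fx and 407.9 to 589.6 CPM in the libraries labelled Ko, most of it Pdgfrb, picked after its values were seen, at 285 to 550.2 CPM, whose log2 fold change was 0.49 ± 0.23 (adjusted p by edgeR 0.408 without and 0.0161 with the block), with Mcam at 12.3 to 42.5 CPM. The list had Kcnj8 and Abcc9 at 0 reads and Cspg4 at 0.130 to 0.933 CPM, where the log2 fold change was −2.37 ± 0.44 (adjusted p = 0.0441 by edgeR), and Notch3 at −1.05 ± 0.42 (0.329). Of 12 skeletal muscle markers 8 had at most 3 counts in every library, among them Myog and Myf5, and the summed level was 4.43 to 15.7 CPM, most of it Acta1. Cardiac markers summed to 1.09 to 6.38 CPM, with Myh6, Myh7 and Myl7 at most at 3 counts, and within them Nkx2-5 had a log2 fold change of 4.23 ± 0.38 (adjusted p = 0.00574 by edgeR) and Tnnt2 one of −2.29 ± 0.72 (0.212). Odontoblast markers summed to 13.1 to 63.0 CPM in the Fx and 0.813 to 13.4 CPM in the libraries labelled Ko, where Alpl had a log2 fold change of −5.61 ± 0.72 (0.0153 by edgeR) and Dspp at most 1 read. Endothelial markers summed to 1.96 to 5.55 CPM (3 tested, 1 higher, Tek, and 1 lower, Kdr, at the same unadjusted limit). Epithelial markers summed to 0.489 to 3.06 CPM (1 lower of 1 tested, Krt14). Immune markers summed to 2.97 to 14.4 CPM (2 lower of 2 tested, Cd68 and Csf1r, with Ptprc at most at 3 counts) and glial markers to 1.32 to 3.03 CPM (0 of 1 tested). The part of these markers in the levels of the contractile genes was not tested.

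Over all 8 libraries and 9639 genes of at least 10 CPM on average, the genes most like Acta2 by Pearson correlation of log2 CPM were Mrps34 (0.994), Bcs1l (0.990), Atp5b (0.989), Ndufa5 (0.989) and Cfl1 (0.988). The first 4 encode mitochondrial proteins and Cfl1 encodes cofilin, which severs actin filaments. Among its own group Myl9 came closest, with 0.965 and place 70 in the order, then Tagln with 0.888 (place 484), Tpm1 with 0.879 (545), Tpm2 with 0.772 (1155), Srf with 0.635 (1948) and Cnn1 with 0.625 (2009). Actg2, too low for that order, correlated at 0.921 with Acta2 and at 0.981 with Myl9. Cnn1 was nearest to Tpm2, at 0.956, and far from Actg2, at 0.372. The 8 points share genotype, culture time and the alignment shares given above, so these correlations are a description.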

How the data were processed

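Total RNA of 8 libraries, 1 per genotype and culture time, was analysed from the gene counts that the authors deposited, which are unnormalized integers per gene symbol. By the submitters' notes and the study's methods, the authors aligned reads with TopHat2 2.0.8b to mm9 and counted them with HTSeq; the annotation and strand setting are not given in the sources used here, and the sources differ on single or paired reads. The 5 summary counters of each deposited count file were left out, as were the lncRNA counts. The genes and lists were chosen with earlier results of these data known.

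Counts were tested in R 4.3.3 with edgeR 4.0.16 (TMM, filter of 10 counts and 15 in total, quasi-likelihood test, Benjamini-Hochberg adjustment over all 13121 genes tested), with 3 libraries per genotype. Alternatives were DESeq2 1.42.0, limma 3.58.1 on log2 CPM (prior count 0.5) and log2 RPKM (offset 0.1), other scalings and filters, all 8 libraries, culture time as a block, and leaving out each library. The contrast of 72 h, the block without single pairs and the fit of 7 libraries were added after seeing the data. Tests were tried on simulated data. Gene positions and lengths came from GENCODE M1 (mm9), promoter sequences from RefSeq. Named genes are the 10 genes, from each other list up to 4 with the largest fold change past the unadjusted limit or else the 2 most abundant, their family relatives, and the 5 genes most like Acta2; genes named beyond this rule (such as Postn, Mkl1, Mkl2, Klf4, Msx1, Runx2, Pdgfrb, Mcam and the matrix genes at 72 h) were chosen after their values were seen. Log2 ratios at single times used a prior count of 2. Counting intervals are exact at 95% and, like the floor of 3 counts, cover counting error only. Of the matrix list, 1 gene is not reported here by name.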

Additional observations from a re-analysis of the deposited data

Results flagged for a closer look

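Within the 4 libraries of a genotype, 16 groups of CPM values were checked for a library far from the others by Dixon's ratio at its 95% critical value for 4 values, and 5 were past it, all of them libraries of 72 h. Chance passes about 1 in 20 groups. The Fx library of 72 h stood apart for Acta2 at 899 CPM (ratio 0.955), Actg2 at 8.042 CPM (0.830), Cnn1 at 249.9 CPM (0.836) and Myl9 at 185.9 CPM (0.946). The Ko library of 72 h stood apart for Tpm1 at 1435 CPM (0.835). In the Ko group the check includes the library labelled 24 h, and culture time differs within each group by design.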

How the results depend on the processing

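At the adjusted genotype limit, 0 of 8 genes became 2 with culture time as a replicate block over 6 libraries (8.45% of all genes), and 0 to 2 when libraries or pairs were left out (2 whenever a pair was left out under the block, with 7.47 to 8.09% of all genes). At the unadjusted limit, 0 of 8 (7.35% of all genes) became 2 with 7 libraries (without the one labelled Ko of 24 h; 7.79% of all genes), DESeq2 (7.84%), limma on log2 CPM (7.12%) or log2 RPKM (6.04%), no filter (2 of 10 tested, 7.39%), or the block over 6 libraries (9.46%), and 1 with the block over 8 libraries (5.08%), total count scaling (7.25%) or upper quartile scaling (7.26%). With libraries or pairs left out it ran from 0 to 3, with 3 without the Fx library of 72 h (7.96%) and 2 without the Ko library of 48 h (7.13%). Acta2, Actg2 and Myl9 kept their direction in every alternative fit of genotype, though with a library left out their log2 fold changes ran from 0.34 to 1.27, 1.11 to 3.74 and 0.64 to 1.88, lowest without the Ko library of 72 h and highest without the Fx library of 72 h. The sign turned for Tpm2 (0.01) and Srf (0.06) with 7 libraries. Leaving out 1 library or pair gave log2 fold changes from −0.52 to 1.21 for Tagln, −1.01 to 0.09 for Cnn1, −0.20 to 0.49 for Tpm1, −0.43 to 0.16 for Tpm2 and −0.56 to 0.26 for Srf. Genes with an unadjusted p under 0.05 for the time slope numbered 1 (21.1% of all genes), against 3 with DESeq2 (24.4%), 3 in the Fx libraries alone (9.85%), 4 with time in hours (31.7%), and 0 to 6 with a library left out, where 6 came without the Ko library of 48 h (32.4%) and 0 without the Fx library of 72 h (9.51%) or the Ko library of 6 h (4.35%). The 8 genes called at 72 h ranged from 0 to 8 with a library left out, where 0 came without the Fx library of 72 h (3.39% of all genes) or the Ko library of 72 h (0 genes of all), and Tpm2 missed the limit without a filter (adjusted p = 0.0521 by edgeR) and with total count scaling (0.0633). The causes were not tested. Where a library was left out, a lone library of 72 h was assumed to vary like the others. Depth limits Myh11 and Myocd, which could not be tested.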

Other observations

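Among the 21 tested myofibroblast matrix and adhesion genes, 6 rose and 1 fell at 72 h against 6 and 48 h, where 25.9% of all genes were called and 11.3% as higher, with values picked after they were seen. Among those that rose, Ctgf, the connective tissue growth factor gene, had a log2 difference of 2.16 ± 0.50 (SE; adjusted p = 0.0228 by edgeR). Cdh11 rose by 0.94, Col5a1 by 0.63, and the integrin genes Itga5 and Itgb1 by 0.60 and 0.50, while Tgfb1 fell by 1.03 on the log2 scale (0.00561). Col1a1 and Fn1 had log2 differences of −0.11 ± 0.20 and −0.22 ± 0.42. As with the contractile genes, 1 library per genotype stands for 72 h.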
